A study of Homo sapiens with 4 samples.

Results

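The 38 genes described here encode the subunits of the mTOR complexes mTORC1 and mTORC2, the proteins that switch them on or off, the first substrates, the kinases AKT1, AKT2 and PIK3CA, and FKBP1A, the protein that rapamycin binds. They were taken as a named list of genes and not by any measured value, and a peak belonged to a gene when the authors' nearest-gene column named it. By that rule 35 of the 38 genes were named in at least 1 list, through 70 of the 69838 regions obtained by merging overlapping peaks of the 4 lists. The genes had 52 of 44760 peaks in shARID1A rapamycin, 49 of 45700 in shARID1A DMSO, 56 of 49783 in shControl rapamycin and 60 of 52192 in shControl DMSO.

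The data are ATAC-seq peak lists, in which a transposase cuts accessible DNA and stretches rich in cuts are listed as peaks. All 4 groups were Huh7 cells, an established line from a human hepatocellular carcinoma, and each gave 1 library from the nuclei of 50000 cells. The groups were shARID1A cells in 100 nM rapamycin for 6 h, shARID1A cells in DMSO, shControl cells in 100 nM rapamycin for 6 h, and shControl cells in DMSO. ARID1A is a DNA-binding subunit of the SWI/SNF chromatin remodelling complex, and the labels do not say whether each shRNA line was a clone or a pool. With 1 library per group there was no replicate, so no difference below was tested, no error could be given, and a difference between genotypes or treatments cannot be told apart from a difference between libraries. The read depth is unknown, and peaks do not measure RNA, so the knockdown itself was not checked here. In bulk libraries, fewer cells with an open region and a less open region in every cell cannot be told apart.

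As a check of the cell type, promoter peaks were looked up for 14 hepatocyte markers by the literal rule. APOA1, APOB, TF, GPC3 and HNF4A had one in every list, while ALB, AFP, FGB and SERPINA1, which Huh7 cells are known to express, were named for none in any list. None of the 5 endothelial markers had one, and of the 5 leukocyte markers CD14 alone, in both shControl lists. Of the 5 fibroblast markers, COL1A1 was named in both shARID1A lists and LUM in all lists but shARID1A rapamycin. By position the promoters of SERPINA1, FOXA3, CD14 and the fibroblast marker ACTA2 had a peak in all 4 lists, that of SERPINA1 at 63.4% in shARID1A rapamycin, 60.98% in shARID1A DMSO, 53.9% in shControl rapamycin and 55.1% in shControl DMSO of list length and that of ACTA2 at 61.8% in shARID1A rapamycin, 46.3% in shARID1A DMSO, 49.8% in shControl rapamycin and 57.7% in shControl DMSO.

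mTORC1 promotes growth when amino acids and growth factors are plentiful. Amino acids act through the Rag GTPases, which bring mTORC1 to the lysosome, and growth factors act through AKT and the TSC complex on the small GTPase RHEB, which turns the kinase on. Rapamycin bound to FKBP1A blocks mTORC1 acutely, while mTORC2, which phosphorylates AKT, is less sensitive to short exposure. In hepatocytes the pathway links feeding to protein, lipid and glycogen metabolism, and it is often overactive in liver cancer.

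Every sequence shown here lies just before an annotated gene start, and the 6 were chosen because the results turn on their promoters. MTOR is the kinase itself, FLCN and LAMTOR3 had some of the largest differences between lists, and RRAGC, LAMTOR4 and FNIP1 hold the E-box CACGTG, the core motif bound by MYC and by the lysosomal regulators TFEB and TFE3. Each window is the 250 bases upstream of a RefSeq start on GRCh38.p14, written 5′ to 3′ on the strand of the gene. The windows are chr1:11262552-11262801 for MTOR (minus strand), chr17:17237169-17237418 for FLCN (minus), chr4:99894547-99894796 for LAMTOR3 (minus), chr1:38859773-38860022 for RRAGC (minus), chr7:100148668-100148917 for LAMTOR4 (plus) and chr5:131797018-131797267 for FNIP1 (minus). Capitals mark the E-box CACGTG, the GC box GGGCGG and the CCAAT box, each on either strand.
MTOR: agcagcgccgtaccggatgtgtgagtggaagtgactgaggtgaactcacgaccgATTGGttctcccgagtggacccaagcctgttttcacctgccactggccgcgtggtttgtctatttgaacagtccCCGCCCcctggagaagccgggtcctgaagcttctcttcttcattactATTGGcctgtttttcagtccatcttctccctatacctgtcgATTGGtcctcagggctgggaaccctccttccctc
FLCN: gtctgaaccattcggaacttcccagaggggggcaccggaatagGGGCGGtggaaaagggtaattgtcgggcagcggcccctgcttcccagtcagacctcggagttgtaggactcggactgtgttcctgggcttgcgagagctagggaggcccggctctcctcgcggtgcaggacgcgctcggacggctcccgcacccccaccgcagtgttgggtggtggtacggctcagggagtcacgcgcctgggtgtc
LAMTOR3: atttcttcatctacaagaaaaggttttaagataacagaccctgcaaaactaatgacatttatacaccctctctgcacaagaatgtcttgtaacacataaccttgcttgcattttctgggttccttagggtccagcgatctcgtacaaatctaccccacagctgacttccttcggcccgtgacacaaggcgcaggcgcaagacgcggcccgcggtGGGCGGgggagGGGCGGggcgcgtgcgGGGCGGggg
RRAGC: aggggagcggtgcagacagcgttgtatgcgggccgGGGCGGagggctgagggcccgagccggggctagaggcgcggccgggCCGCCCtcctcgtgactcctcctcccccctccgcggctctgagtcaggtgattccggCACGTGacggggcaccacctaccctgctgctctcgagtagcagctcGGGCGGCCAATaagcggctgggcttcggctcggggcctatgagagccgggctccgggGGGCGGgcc
LAMTOR4: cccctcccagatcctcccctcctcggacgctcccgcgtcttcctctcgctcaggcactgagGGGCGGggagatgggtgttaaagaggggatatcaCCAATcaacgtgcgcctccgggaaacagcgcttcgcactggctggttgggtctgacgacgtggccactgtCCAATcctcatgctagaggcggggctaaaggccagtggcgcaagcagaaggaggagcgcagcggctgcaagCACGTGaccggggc
FNIP1: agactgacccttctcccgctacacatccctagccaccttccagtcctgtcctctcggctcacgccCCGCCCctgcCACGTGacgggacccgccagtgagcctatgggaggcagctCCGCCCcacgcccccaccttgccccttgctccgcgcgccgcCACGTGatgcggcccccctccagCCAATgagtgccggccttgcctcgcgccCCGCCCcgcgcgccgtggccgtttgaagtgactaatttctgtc

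The MTOR window holds 3 CCAAT boxes and 1 GC box, and the FLCN window 1 GC box. The windows of MTOR, FLCN, RRAGC, LAMTOR4 and FNIP1 lay inside a peak in all 4 lists, and the LAMTOR3 window in 3 of 4. Of the 38 genes, 32 had entries in the RefSeq promoter table, with 46 windows among them. The E-box occurred in 13.0% of these windows against 6.31% of all 34788 windows in the table, in PRR5, TSC2, RRAGC, LAMTOR1, LAMTOR4 and FNIP1. The GC box occurred in 71.7% against 42.6%, the CCAAT box in 32.6% against 32.0%, the ETS motif CCGGAAG in 17.4% against 8.50%, the NRF1 motif in 4.35% against 1.02%, the TATA box TATAAA in 6.52% against 10.8%, and the cyclic AMP response element TGACGTCA in 0% against 1.64%. Both strands were searched, and no 2 marked motifs of different kinds overlapped, although GC boxes overlapped one another in some windows, such as that of RICTOR. The 32 genes had a median GC content of 64.7% against 58% over all windows. A match describes the letters only, and binding by any factor was not measured.

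Whether each gene had an open promoter was the first comparison. Taken literally, the nearest-gene rule gave a promoter peak, one centred within 1 kb of a start by the authors' distance, to 30 of 38 genes in shARID1A rapamycin, 29 in shARID1A DMSO, 30 in shControl rapamycin and 30 in shControl DMSO. It named 26 genes in every list, 7 in some lists (MTOR, AKT1S1, PRR5, FNIP1, SLC38A9, AKT1 and AKT2) and 5 in none (TSC2, LAMTOR2, NPRL2, PIK3CA and FKBP1A). Set by position, all 38 genes had a peak within 1 kb of a RefSeq start in all 4 lists, against 68.0% to 68.8% of 15849 protein-coding genes in each list. For 6 of the 38 (MLST8, AKT1S1, DEPTOR, RRAGA, RRAGD and EIF4EBP1) the start was taken as the end of the gene nearer to its listed promoter peaks, so their peak by position is no separate evidence. All 38 promoters thus carried a listed peak in all 4 libraries, and the absences by the literal rule were differences in the name or distance printed beside a peak.

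The SLC38A9 promoter peak, for example, was given distances of -14257 bp in shARID1A rapamycin, -14307 bp in shARID1A DMSO, -19250 bp in shControl rapamycin and 392 bp in shControl DMSO, with its edges almost unmoved. FNIP1 lost its name to AC008695.1 in both shARID1A lists, and AKT2 to MIR641 in shARID1A DMSO. TSC2 shares a promoter region with NTHL1, LAMTOR2 with UBQLN4, NPRL2 with Z84492.1 and PIK3CA with AC076966.1, and in each case the partner was named in all 4 lists. The FKBP1A promoter was named MIR6869 or AL136531.2, and that of AKT1S1 was named TBC1D17 in all lists but shARID1A DMSO. Such shifts ran through the lists as a whole: of 30352 regions with 1 peak in every list, 16.2% did not carry the same name in all 4, and of the 12365 among them listed as a promoter, 21.5% did not. Of the promoters described here it was 15.8% (6 of 38). For this reason levels and differences below are given by position, with the counts under the literal rule beside them.

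The strength of a peak is given as its rank by the authors' score within its own list, in percent of list length, so that a rank near 0% is among the strongest peaks and 100% is the weakest. The files do not state the scale of the score, and ranks were compared only as places within a list. By position the median promoter rank of the 38 genes was 8.72% in shARID1A rapamycin, 7.08% in shARID1A DMSO, 8.74% in shControl rapamycin and 7.26% in shControl DMSO. The medians over all protein-coding genes with a promoter peak were 14.7% in shARID1A rapamycin, 14.6% in shARID1A DMSO, 14.6% in shControl rapamycin and 14.3% in shControl DMSO. The top 10% of a list held the promoters of 22 of the 38 genes in each shARID1A list and of 21 in each shControl list, or 57.9% and 55.3%, against 36.5% to 38.4% of the protein-coding genes with a promoter peak. In every library the median promoter of the pathway thus stood at a stronger rank than the median coding promoter.

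**Figure D1:**
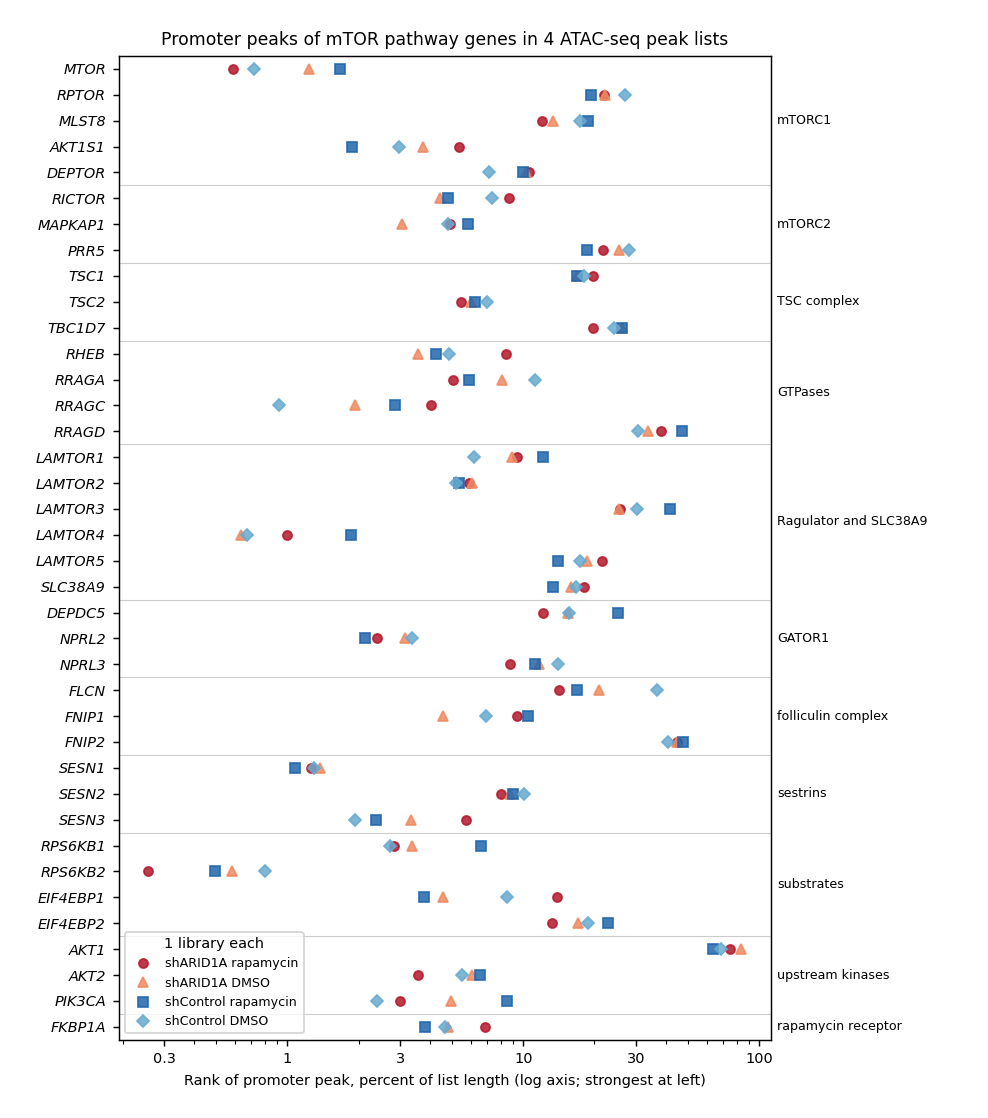
Rank of the promoter peak for the 38 genes, taken from the region within 1 kb of a gene start that was strongest on average over the lists, in percent of list length on a log axis, with the strongest at left and 1 point per library. RPS6KB2, LAMTOR4, MTOR and SESN1 lie below 2% in all 4 lists, while AKT1 lies above 60% in all 4.

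Within mTORC1, the promoter of MTOR, the catalytic subunit, ranked at 0.585% in shARID1A rapamycin, 1.24% in shARID1A DMSO, 1.67% in shControl rapamycin and 0.720% in shControl DMSO. It was among the strongest of all promoters in each library. RPTOR, which holds the substrates, had a weaker promoter, at 22.1% in shARID1A rapamycin, 22.1% in shARID1A DMSO, 19.3% in shControl rapamycin and 26.9% in shControl DMSO. MLST8, a subunit of both complexes, ranked at 11.98% in shARID1A rapamycin, 13.3% in shARID1A DMSO, 18.8% in shControl rapamycin and 17.4% in shControl DMSO, stronger in both shARID1A lists than in both shControl lists. The inhibitor AKT1S1, also called PRAS40, stood at 5.33% in shARID1A rapamycin, 3.77% in shARID1A DMSO, 1.88% in shControl rapamycin and 2.98% in shControl DMSO, so that both shARID1A values were weaker than both shControl values. The second inhibitor, DEPTOR, ranked at 10.6% in shARID1A rapamycin, 10.3% in shARID1A DMSO, 10.00% in shControl rapamycin and 7.14% in shControl DMSO. None of the 5 differed by 10 points of list length in any of the 4 comparisons.

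In mTORC2, the scaffold RICTOR ranked at 8.67% in shARID1A rapamycin, 4.43% in shARID1A DMSO, 4.78% in shControl rapamycin and 7.38% in shControl DMSO. MAPKAP1, which encodes the substrate-binding subunit SIN1, ranked at 4.87% in shARID1A rapamycin, 3.05% in shARID1A DMSO, 5.84% in shControl rapamycin and 4.78% in shControl DMSO. Both were within 10% of list length in every library. PRR5 has several starts, and the strongest on average, shared with the read-through gene PRR5-ARHGAP8, ranked at 21.8% in shARID1A rapamycin, 25.4% in shARID1A DMSO, 18.6% in shControl rapamycin and 27.98% in shControl DMSO. A second PRR5 start had a peak at 30.9% in shARID1A rapamycin, 26.1% in shARID1A DMSO, 41.1% in shControl rapamycin and 18.2% in shControl DMSO. In shControl DMSO this second start was the stronger of the pair, and with rapamycin in shControl the first start was stronger and the second weaker, so no direction is given for PRR5. Under the literal rule PRR5 was set at 86.3% in shControl rapamycin, from a weak peak at the start furthest upstream, against 30.9% in shARID1A rapamycin, a difference of -55.39 points that compared different regions.

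The TSC complex keeps RHEB inactive. Its catalytic subunit TSC2 ranked at 5.45% in shARID1A rapamycin, 6.00% in shARID1A DMSO, 6.25% in shControl rapamycin and 7.03% in shControl DMSO, a span of under 2 points. TSC1, its partner, ranked at 19.7% in shARID1A rapamycin, 16.9% in shARID1A DMSO, 16.8% in shControl rapamycin and 18.1% in shControl DMSO. The third subunit, TBC1D7, stood at 19.7% in shARID1A rapamycin, 26.04% in shARID1A DMSO, 26.3% in shControl rapamycin and 24.2% in shControl DMSO, strongest in shARID1A cells with rapamycin. Of the GTPases, RHEB ranked at 8.43% in shARID1A rapamycin, 3.59% in shARID1A DMSO, 4.26% in shControl rapamycin and 4.84% in shControl DMSO, weakest where knockdown and rapamycin were combined. RRAGA ranked at 5.02% in shARID1A rapamycin, 8.11% in shARID1A DMSO, 5.87% in shControl rapamycin and 11.2% in shControl DMSO, and RRAGC at 4.05% in shARID1A rapamycin, 1.93% in shARID1A DMSO, 2.86% in shControl rapamycin and 0.918% in shControl DMSO. The RRAGA peak was stronger with rapamycin in both genotypes, by -3.09 points in shARID1A and -5.29 in shControl, and the RRAGC peak weaker in both, by 2.11 points in shARID1A and 1.94 in shControl. RRAGD, the partner that TFEB is known to induce, had the weakest promoter of the 4 GTPases, at 38.2% in shARID1A rapamycin, 33.6% in shARID1A DMSO, 47.04% in shControl rapamycin and 30.4% in shControl DMSO. With rapamycin it was weaker by 4.66 points in shARID1A and by 16.6 points in shControl.

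Ragulator is the lysosomal anchor of the Rag GTPases, and its 5 promoters ranked anywhere between 0.632% and 41.8% of list length. LAMTOR4 ranked at 0.996% in shARID1A rapamycin, 0.632% in shARID1A DMSO, 1.86% in shControl rapamycin and 0.671% in shControl DMSO, among the strongest promoters of all. LAMTOR2 ranked at 5.91% in shARID1A rapamycin, 6.03% in shARID1A DMSO, 5.36% in shControl rapamycin and 5.20% in shControl DMSO, and LAMTOR1 at 9.41% in shARID1A rapamycin, 8.95% in shARID1A DMSO, 12.1% in shControl rapamycin and 6.16% in shControl DMSO. LAMTOR2 was the steadier of that pair. LAMTOR5 ranked at 21.5% in shARID1A rapamycin, 18.6% in shARID1A DMSO, 13.96% in shControl rapamycin and 17.3% in shControl DMSO. LAMTOR3 was the weakest of the 5, at 25.8% in shARID1A rapamycin, 25.5% in shARID1A DMSO, 41.8% in shControl rapamycin and 30.3% in shControl DMSO. Its promoter in shControl rapamycin stood apart from the other 3 lists, by 11.5 points against shControl DMSO and by -16.0 points when shARID1A rapamycin was set against it. SLC38A9, the lysosomal arginine sensor that works with Ragulator, ranked at 18.1% in shARID1A rapamycin, 15.9% in shARID1A DMSO, 13.4% in shControl rapamycin and 16.7% in shControl DMSO.

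GATOR1 inactivates the Rag GTPases when amino acids are scarce. Its subunit DEPDC5 ranked at 12.1% in shARID1A rapamycin, 15.4% in shARID1A DMSO, 25.2% in shControl rapamycin and 15.7% in shControl DMSO, and here too shControl rapamycin was the list that stood apart. NPRL2 ranked at 2.40% in shARID1A rapamycin, 3.16% in shARID1A DMSO, 2.12% in shControl rapamycin and 3.39% in shControl DMSO. NPRL3 ranked at 8.76% in shARID1A rapamycin, 11.6% in shARID1A DMSO, 11.2% in shControl rapamycin and 13.97% in shControl DMSO, stronger with rapamycin by -2.84 points in shARID1A and -2.76 in shControl. The folliculin complex acts on RRAGC and RRAGD to favour mTORC1 binding. FLCN itself ranked at 14.1% in shARID1A rapamycin, 20.9% in shARID1A DMSO, 16.8% in shControl rapamycin and 36.99% in shControl DMSO. The weakest FLCN value was that of shControl cells in DMSO, and the other 3 libraries lay within 7 points of one another. Knockdown set it at -16.1 points in DMSO and -2.73 in rapamycin, and rapamycin at -6.79 points in shARID1A and -20.2 in shControl, where a negative difference is a stronger peak in the first-named group. FNIP1 ranked at 9.36% in shARID1A rapamycin, 4.54% in shARID1A DMSO, 10.4% in shControl rapamycin and 6.94% in shControl DMSO, weaker with rapamycin in both genotypes, by 4.82 points in shARID1A and 3.51 in shControl. FNIP2 ranked at 44.7% in shARID1A rapamycin, 44.7% in shARID1A DMSO, 47.2% in shControl rapamycin and 40.8% in shControl DMSO, one of the weakest promoters of the pathway.

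The sestrins restrain mTORC1 under stress, SESN2 as a leucine sensor. SESN1 ranked at 1.26% in shARID1A rapamycin, 1.37% in shARID1A DMSO, 1.07% in shControl rapamycin and 1.29% in shControl DMSO at the promoter it shares with CEP57L1. Another SESN1 promoter ranked at 12.8% in shARID1A rapamycin, 9.18% in shARID1A DMSO, 11.98% in shControl rapamycin and 13.99% in shControl DMSO. The literal rule took one of these promoters in some lists and the other in the rest, which gave SESN1 apparent differences of 7.89 points with knockdown in DMSO and 10.7 points with rapamycin in shControl, where neither promoter alone differed by as much as 5 points. Likewise it set 1.26% in shARID1A rapamycin against 11.98% in shControl rapamycin, and gave -7.92 points with rapamycin in shARID1A. SESN2 ranked at 8.03% in shARID1A rapamycin, 8.81% in shARID1A DMSO, 8.99% in shControl rapamycin and 10.02% in shControl DMSO. SESN3 ranked at 5.73% in shARID1A rapamycin, 3.35% in shARID1A DMSO, 2.37% in shControl rapamycin and 1.93% in shControl DMSO, with both shARID1A values weaker than both shControl values.

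Among the substrates, RPS6KB2, a kinase of ribosomal protein S6, had the strongest promoter of the 38 genes on average, at 0.257% in shARID1A rapamycin, 0.582% in shARID1A DMSO, 0.494% in shControl rapamycin and 0.805% in shControl DMSO. Its relative RPS6KB1 ranked at 2.83% in shARID1A rapamycin, 3.36% in shARID1A DMSO, 6.64% in shControl rapamycin and 2.71% in shControl DMSO. EIF4EBP1, a repressor of cap-dependent translation that mTORC1 switches off, ranked at 13.9% in shARID1A rapamycin, 4.57% in shARID1A DMSO, 3.79% in shControl rapamycin and 8.51% in shControl DMSO. Rapamycin went with a weaker EIF4EBP1 rank in shARID1A, by 9.36 points, and with a stronger one in shControl, at -4.71 points, and the difference between genotypes was not tested. EIF4EBP2 ranked at 13.2% in shARID1A rapamycin, 17.1% in shARID1A DMSO, 22.7% in shControl rapamycin and 18.8% in shControl DMSO, the other way round, at -3.82 points in shARID1A and 3.89 in shControl.

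Of the upstream kinases, PIK3CA, the catalytic subunit of phosphoinositide 3-kinase, ranked at 2.98% in shARID1A rapamycin, 4.93% in shARID1A DMSO, 8.49% in shControl rapamycin and 2.39% in shControl DMSO. AKT2, the AKT form that dominates insulin signalling in liver, ranked at 3.57% in shARID1A rapamycin, 6.06% in shARID1A DMSO, 6.57% in shControl rapamycin and 5.49% in shControl DMSO. AKT1 was the exception of the pathway, at 75.1% in shARID1A rapamycin, 83.5% in shARID1A DMSO, 63.5% in shControl rapamycin and 69.02% in shControl DMSO, in the weak part of each list. Both shARID1A values of AKT1 were weaker than both shControl values, by 14.5 points in DMSO and 11.6 in rapamycin. The AKT1 peak lies just inside the gene, and its authors' distance falls either side of 1 kb, so the literal rule counted it as a promoter in the shARID1A lists and as distal in the shControl lists. FKBP1A, the target that rapamycin needs, ranked at 6.89% in shARID1A rapamycin, 4.78% in shARID1A DMSO, 3.83% in shControl rapamycin and 4.64% in shControl DMSO, within the top 10% of every list. Both shARID1A values were stronger than both shControl values at MLST8, TSC2, LAMTOR3, DEPDC5, SESN2 and EIF4EBP2. They were weaker at AKT1S1, DEPTOR, LAMTOR2, LAMTOR5, SESN3, AKT1 and FKBP1A. The share of all genes with such a separation was not computed, so it is given as values only.

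A difference was counted when a promoter moved by 10 or more points of list length between 2 lists, and every count is set beside the share of all genes that did so. For shARID1A against shControl in DMSO, 1 of 38 promoters was weaker (AKT1) and 1 stronger (FLCN), against 4.55% and 8.2% of 10549 genes. For shARID1A against shControl in rapamycin, 2 were weaker (AKT1 and EIF4EBP1) and 2 stronger (LAMTOR3 and DEPDC5), against 5.71% and 7.29% of 10534 genes. A count of 1 or 2 in 38 is 2.63% or 5.26%, at or under the background in each case. For rapamycin against DMSO in shARID1A, 0 were weaker and 0 stronger, against 6.23% and 4.37% of 10591 genes. For rapamycin against DMSO in shControl, 2 were weaker (RRAGD and LAMTOR3) and 1 stronger (FLCN), against 7.06% and 7.29% of 10528 genes. By position, in each comparison and direction the share among the 38 lay under the share of all genes, and with rapamycin in shARID1A none of the 38 reached 10 points. A promoter within the top 10% of a list cannot be 10 points stronger in the other list compared. The top 10% held 55.3% to 57.9% of the 38, against 36.5% to 38.4% of coding genes with a promoter peak. The 38 thus had less room to pass 10 points, and their lower shares cannot be read as steadier promoters. Ranked among promoter peaks, some shares lay over the background, as given further below.

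Counting any difference, 17 of 38 promoters were weaker with knockdown in DMSO (44.7%, against 49.7% of all genes) and 17 with knockdown in rapamycin (against 51.7%). With rapamycin, 18 were weaker in shARID1A (47.4%, against 52.6%) and 19 in shControl (50%, against 51.7%). The median differences of the 38 promoters were likewise near 0 in every comparison. They were -0.22 points for knockdown in DMSO (-0.014 over all genes), -0.82 for knockdown in rapamycin (0.096), -0.075 for rapamycin in shARID1A (0.149) and -0.032 for rapamycin in shControl (0.095). Under the literal rule, over genes named in both lists, the medians were -0.72 points for knockdown in DMSO (26 genes, 0.017 over all genes) and -1.08 for knockdown in rapamycin (29 genes, 0.12). They were 0.16 for rapamycin in shARID1A (28 genes, 0.20 over all genes) and 1.07 for rapamycin in shControl (29 genes, 0.082). The literal counts of weaker and stronger promoters were 0 and 1 for knockdown in DMSO (background 8.16% and 10.9%), and 1 and 4 of 29 for knockdown in rapamycin (9.3% and 9.75%). They were 0 and 0 for rapamycin in shARID1A (8.96% and 6.77%), and 3 and 1 of 29 for rapamycin in shControl (9.86% and 10.6%). The 4 stronger with knockdown in rapamycin are 13.8% and the 3 weaker with rapamycin in shControl 10.3%, both over the background, unlike the counts by position. The 4 include PRR5 and SESN1, and the 3 include SESN1, whose literal values compared different promoters. Shares without these genes were not computed, so nothing is concluded from the higher shares. With rapamycin in shControl the literal median lay on the weaker side and the median by position did not, so no direction is given for the pathway as a whole.

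**Figure D2:**
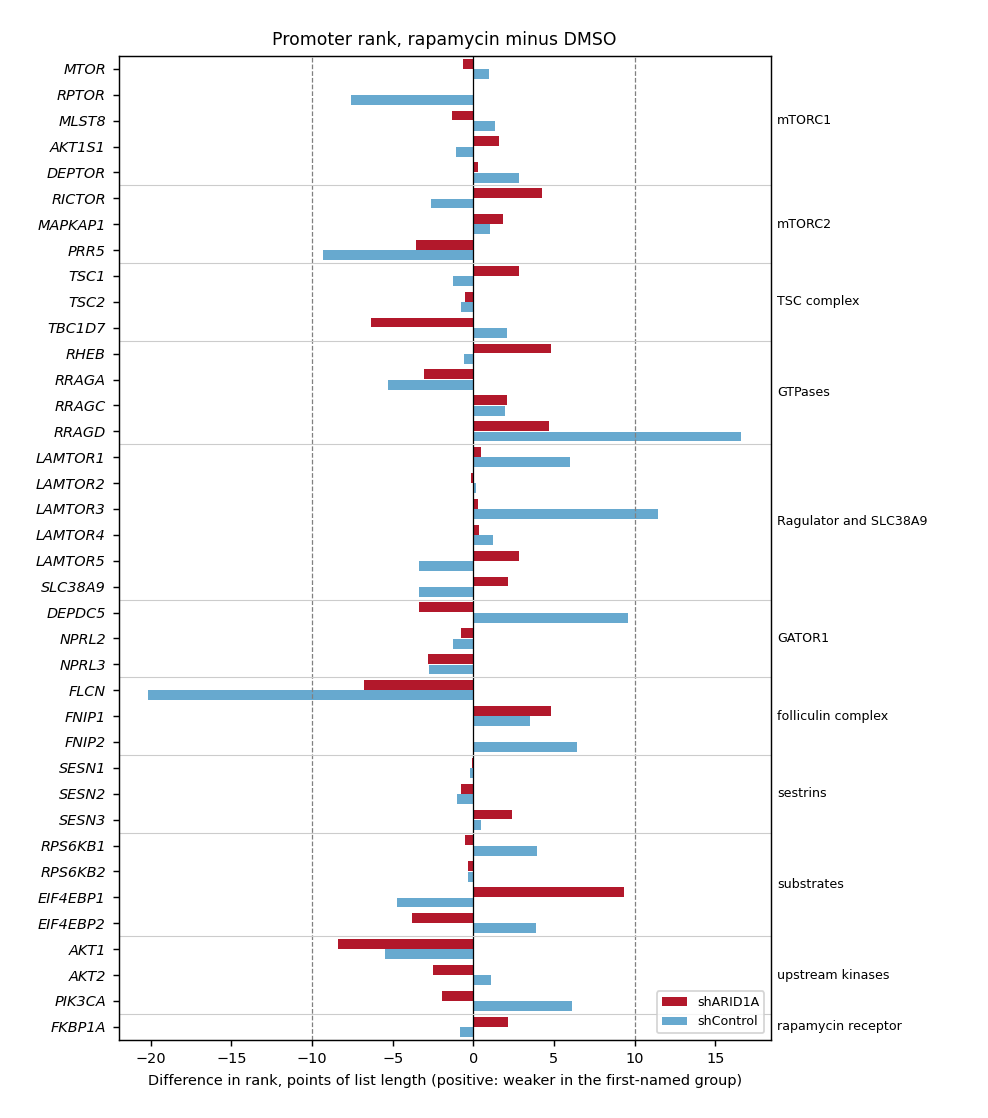
Difference in promoter rank between rapamycin and DMSO for the 38 genes, in points of list length, for shARID1A and shControl cells, with positive values where the peak was weaker in rapamycin and dashed lines at 10 points. No shARID1A bar passes a dashed line, while RRAGD, LAMTOR3 and FLCN pass one in shControl.

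**Figure D3:**
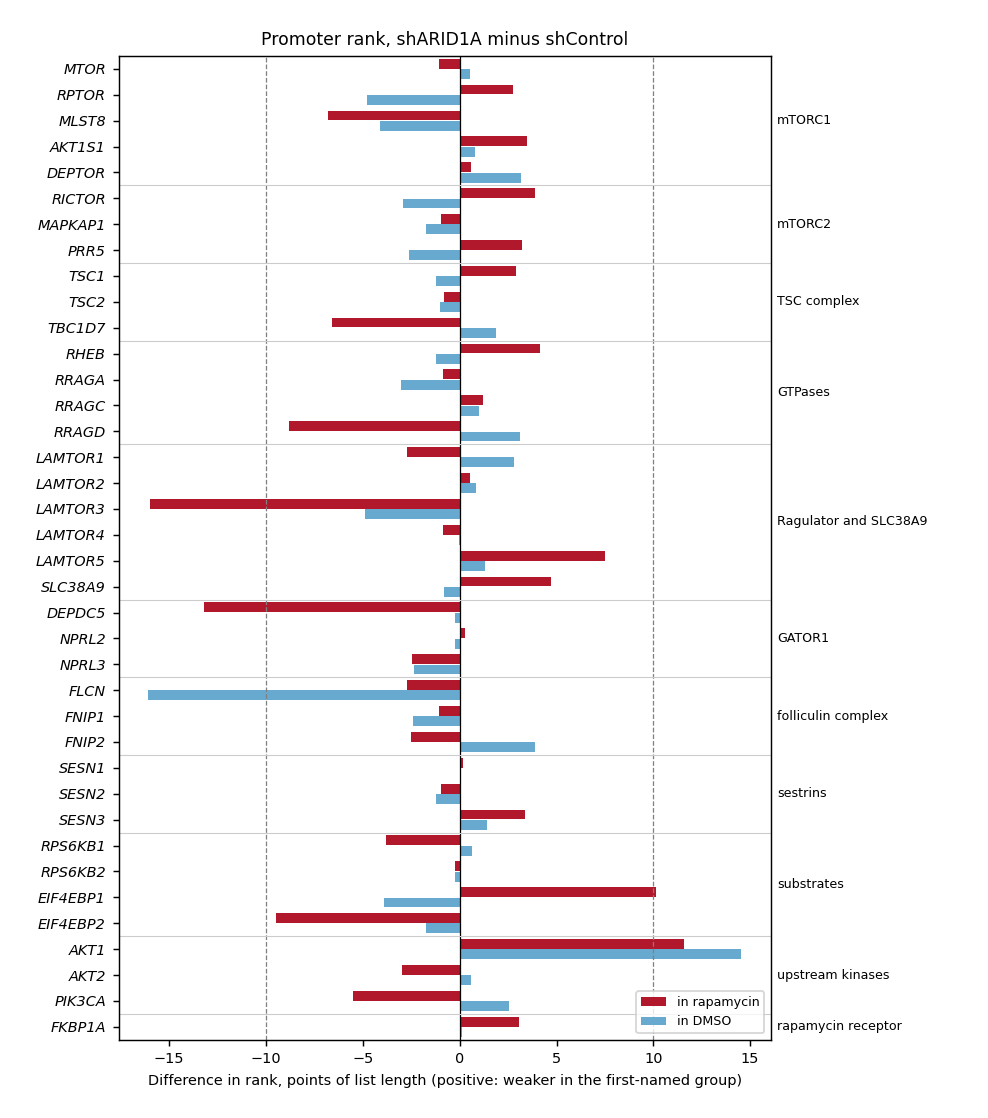
Difference in promoter rank between shARID1A and shControl for the 38 genes, in points of list length, in rapamycin and in DMSO, with positive values where the peak was weaker in shARID1A and dashed lines at 10 points. AKT1 passes 10 points on the weaker side in both media, FLCN on the stronger side in DMSO, and LAMTOR3, DEPDC5 and EIF4EBP1 pass in rapamycin.

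Distal peaks, over 1 kb from the start, numbered 22 in shARID1A rapamycin, 19 in shARID1A DMSO, 25 in shControl rapamycin and 28 in shControl DMSO by the literal rule. Merged over the lists and set by position they made 34 distal regions of 16 genes, of which 17 lay in introns and 16 between genes. A peak was present at 22 of them in shARID1A rapamycin, 24 in shARID1A DMSO, 25 in shControl rapamycin and 27 in shControl DMSO. Of the 34, 17 were open in all 4 libraries (50%), against 34.5% of all 53930 distal regions, and 8 were in 1 library alone, against 35.5%. A region entered the 34 if any list named it, so one open in more lists had more chances to enter. The background has no such selection, so the shares are not strictly alike. RICTOR and RHEB had 5 distal regions each, and MAPKAP1, SESN3 and FKBP1A 4 each, while 22 of the 38 genes had none.

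**Figure D4:**
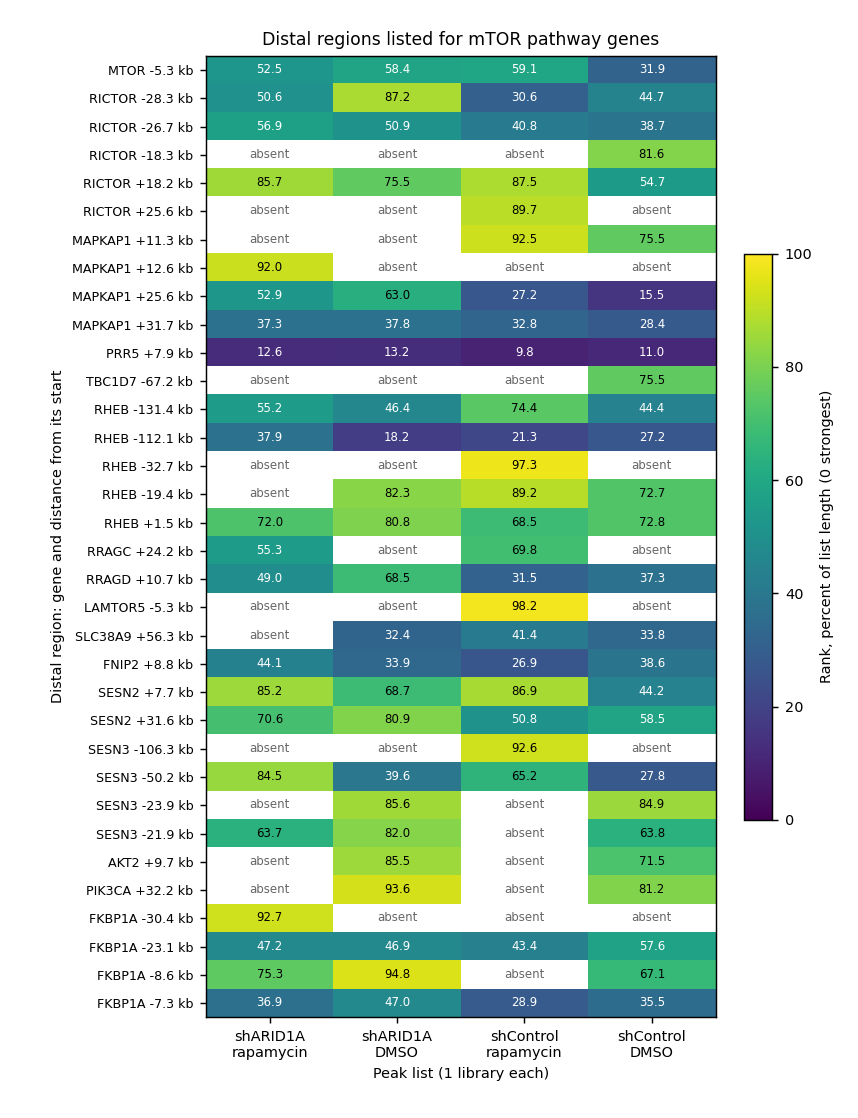
Rank in percent of list length of the strongest peak at each of the 34 distal regions, by library, with 0 the strongest; rows are named by gene and distance from its start, negative upstream. The MAPKAP1 region at 25.6 kb, the SESN3 region at -50.2 kb and the SESN2 region at 7.7 kb are strongest in shControl DMSO, and the PRR5 region stays at 9.8 to 13.2 in all 4 libraries.

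None of the 34 listed distal regions was open in both shARID1A libraries and closed in both shControl libraries, a pattern of 2.08% of all distal regions. The reverse pattern, open only in both shControl libraries, held for 1 region, against 6.44% of all distal regions. It lies in intron 1 of MAPKAP1 (chr9:125695441-125696384), 11.3 kb into the gene, and ranked at 92.5% in shControl rapamycin and 75.5% in shControl DMSO, with no peak in either shARID1A list. The shARID1A DMSO list skips 1 peak number at that place, and no source used here explains its skipped numbers. Open in both rapamycin libraries and neither DMSO library was 1 region, against a background of 1.86%, an intergenic site 24.2 kb from the RRAGC start (chr1:38835362-38835864) at 55.3% in shARID1A rapamycin and 69.8% in shControl rapamycin. Open in both DMSO libraries and neither rapamycin library were 3 regions, against 2.35%.

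Those 3 regions lie -23.9 kb from SESN3 (chr11:95256146-95256691), in intron 2 of AKT2 (chr19:40255445-40255898) and in intron 1 of PIK3CA (chr3:179180156-179181023), where a negative distance is upstream. The SESN3 region ranked at 85.6% in shARID1A DMSO and 84.9% in shControl DMSO, the AKT2 region at 85.5% in shARID1A DMSO and 71.5% in shControl DMSO, and the PIK3CA region at 93.6% in shARID1A DMSO and 81.2% in shControl DMSO. All 3 lay in the weaker part of both DMSO lists. Missing only from shARID1A rapamycin were 2 regions, against 4.81%. The first, in an intron of SLC38A9 (chr5:55636286-55637316), was a peak of middle rank elsewhere, at 32.4% in shARID1A DMSO, 41.4% in shControl rapamycin and 33.8% in shControl DMSO. The second, -19.4 kb from RHEB (chr7:151539088-151539577), ranked at 82.3% in shARID1A DMSO, 89.2% in shControl rapamycin and 72.7% in shControl DMSO. Missing only from shControl rapamycin were 2 regions, against 2.39%, at -8.6 kb from FKBP1A and -21.9 kb from SESN3.

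Over the 17 regions open in every library, the shARID1A rank was weaker than the shControl rank at 14 in DMSO and at 13 in rapamycin, with median differences of 11.8 and 8.07 points. Over all 18580 distal regions open in every library the shARID1A rank was weaker at 68.4% and 65.4%, with medians of 6.11 and 5.06 points. The shARID1A lists are the shorter ones, which raises the percent rank of any shared peak, and counted by place from the top, not divided by list length, 12 and 11 of the 17 were weaker, against 54.3% and 53.8% of all. Rapamycin showed no such lean, with 8 of 17 weaker and 9 stronger in shARID1A and the same counts in shControl, and medians of -0.49 and -1.22 points against 0.79 and 1.58 over all such regions. By percent rank, a weaker rank of the pathway's distal regions in shARID1A cells was thus shared with distal regions in general. By place from the top the general lean was small, and whether the 17 differed from it was not tested.

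The largest of these differences was in intron 1 of MAPKAP1, 25.6 kb into the gene (chr9:125681188-125682124), at 52.9% in shARID1A rapamycin, 63.03% in shARID1A DMSO, 27.2% in shControl rapamycin and 15.5% in shControl DMSO. Both shARID1A values were weaker than both shControl values, by 47.5 points in DMSO and 25.6 in rapamycin, while the MAPKAP1 promoter differed by under 2 points. An intergenic region -28.3 kb from RICTOR (chr5:39102329-39103154) ranked at 50.6% in shARID1A rapamycin, 87.2% in shARID1A DMSO, 30.6% in shControl rapamycin and 44.7% in shControl DMSO, and its neighbour at -26.7 kb at 56.9% in shARID1A rapamycin, 50.9% in shARID1A DMSO, 40.8% in shControl rapamycin and 38.7% in shControl DMSO. Both RICTOR regions were weaker in both shARID1A lists than in both shControl lists. In intron 1 of RRAGD (chr6:89400644-89402495) the ranks were 48.95% in shARID1A rapamycin, 68.5% in shARID1A DMSO, 31.5% in shControl rapamycin and 37.3% in shControl DMSO, again without overlap between the genotypes. The share of all distal regions without such overlap was not computed. The region in intron 2 of PRR5 (chr22:44684436-44685578) was on average the strongest of the 34, at 12.6% in shARID1A rapamycin, 13.2% in shARID1A DMSO, 9.75% in shControl rapamycin and 10.98% in shControl DMSO.

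An intergenic region -50.2 kb from SESN3 (chr11:95282014-95283302) followed rapamycin in both genotypes, at 84.5% in shARID1A rapamycin, 39.6% in shARID1A DMSO, 65.2% in shControl rapamycin and 27.8% in shControl DMSO. Its rank was weaker with rapamycin by 44.9 points in shARID1A and 37.4 in shControl, and none of the other regions among the 17 differed more with rapamycin in shARID1A. Intron 1 of SESN2 held a region (chr1:28266666-28267860) at 85.2% in shARID1A rapamycin, 68.7% in shARID1A DMSO, 86.9% in shControl rapamycin and 44.2% in shControl DMSO, weaker with rapamycin by 16.5 points in shARID1A and 42.6 in shControl. Intron 2 of RICTOR held another (chr5:39055591-39056718) at 85.7% in shARID1A rapamycin, 75.5% in shARID1A DMSO, 87.5% in shControl rapamycin and 54.7% in shControl DMSO, weaker with rapamycin by 10.2 points in shARID1A and 32.9 in shControl. At this RICTOR region the peaks of shARID1A rapamycin (chr5:39056208-39056523) and shControl rapamycin (chr5:39055591-39056200) did not overlap. They were merged into 1 region through peaks of the DMSO lists. For knockdown in rapamycin they are counted below as a peak gained and a peak lost. Among the 17 regions, these 3 at SESN3, SESN2 and intron 2 of RICTOR were the ones 10 points or more weaker with rapamycin in both genotypes. The region at -28.3 kb from RICTOR was the one 10 points or more stronger in both, at -36.5 points in shARID1A and -14.1 in shControl. The shares of all distal regions open in every library that met these rules were not computed, so neither count has a background.

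FKBP1A had the most uneven distal listing, with 4 peaks named in shARID1A rapamycin, 0 in shARID1A DMSO, 0 in shControl rapamycin and 3 in shControl DMSO. By position its 4 regions had 4 peaks in shARID1A rapamycin, 3 in shARID1A DMSO, 2 in shControl rapamycin and 3 in shControl DMSO, and the name given in shARID1A DMSO and shControl rapamycin was AL136531.2. The region at -7.3 kb from FKBP1A (chr20:1399446-1401166) ranked at 36.9% in shARID1A rapamycin, 46.95% in shARID1A DMSO, 28.9% in shControl rapamycin and 35.5% in shControl DMSO, and that at -23.1 kb at 47.2% in shARID1A rapamycin, 46.9% in shARID1A DMSO, 43.4% in shControl rapamycin and 57.6% in shControl DMSO. The absence of every listed distal FKBP1A peak in those lists was thus mostly one of names, although the region at -8.6 kb had no peak in shControl rapamycin, against a rank of 67.1% in shControl DMSO. A region -112.1 kb from RHEB, inside PRKAG2, which encodes a subunit of the energy sensor AMPK (chr7:151631436-151632586), ranked at 37.9% in shARID1A rapamycin, 18.2% in shARID1A DMSO, 21.3% in shControl rapamycin and 27.2% in shControl DMSO.

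Peaks listed for the 38 genes were compared between lists one by one, a peak being lost or gained when no peak of the other list overlapped it by 1 bp. For shARID1A against shControl in DMSO, 4 of 60 peaks were lost and 1 of 49 gained, against 27.6% and 17.7% of all peaks. In rapamycin 9 of 56 were lost and 5 of 52 gained, against 26.7% and 17.9%. With rapamycin, 5 of 49 were lost and 2 of 52 gained in shARID1A (21.2% and 19.3% of all peaks), and 6 of 60 lost and 6 of 56 gained in shControl (21.7% and 18.5%). The peaks at promoters, which are seldom lost anywhere, made up 32 of the 60 in shControl DMSO, and 0 of these were lost with knockdown. Among distal peaks the shares lost were 14.3% (4 of 28) with knockdown in DMSO against 34.9%, 32% (8 of 25) with knockdown in rapamycin against 33.8%, 26.3% (5 of 19) with rapamycin in shARID1A against 27.1%, and 21.4% (6 of 28) with rapamycin in shControl against 27%. The shares of distal peaks gained were 5.26% (1 of 19) with knockdown in DMSO against 22.1%, 22.7% (5 of 22) with knockdown in rapamycin against 23%, 9.09% (2 of 22) with rapamycin in shARID1A against 25.2%, and 20% (5 of 25) with rapamycin in shControl against 23%. By the literal rule all 8 shares lay under those of all distal peaks, most clearly for knockdown in DMSO. Distal peaks by this rule included some at gene starts, such as those of SLC38A9, AKT1 and PRR5 in shControl rapamycin. Shares without such peaks were not computed, so nothing is concluded from the lower shares. By the literal rule, the single promoter peak in any of these counts was a weak one at a PRR5 start, present in shControl rapamycin alone. Another PRR5 peak, listed as distal, lay 0.9 kb from the same start (chr22:44669451-44669848) and is a promoter peak by position. Present in shARID1A DMSO alone, it was the peak gained with knockdown in DMSO and was among those lost with rapamycin in shARID1A.

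A list of 49 further genes of the pathway was looked up in the same way. It covered GATOR2, KICSTOR, amino acid sensors, lipid signalling, assembly factors, immunophilins, further targets, energy sensing and feedback. The literal rule named a promoter peak for 33 of them in shARID1A rapamycin, 37 in shARID1A DMSO, 35 in shControl rapamycin and 38 in shControl DMSO. By position 40 of the 41 with an entry in the promoter table had one in every list. Those weaker and stronger by 10 points were 4 and 2 of 40 for knockdown in DMSO (10% and 5%, against 4.55% and 8.2% of all genes), and 3 and 3 for knockdown in rapamycin (7.5% each, against 5.71% and 7.29%). They were 4 and 3 for rapamycin in shARID1A (10% and 7.5%, against 6.23% and 4.37%), and 2 and 2 for rapamycin in shControl (5% each, against 7.06% and 7.29%). Unlike the 38 genes, the further genes thus passed 10 points more often than all genes in some comparisons, by counts of 3 or 4 genes whose difference from the background was not tested. TFEB, the transcription factor that mTORC1 keeps out of the nucleus, ranked at 74.7% in shARID1A rapamycin, 42.5% in shARID1A DMSO, 43.2% in shControl rapamycin and 53.8% in shControl DMSO. GRB10, an adaptor that mTORC1 stabilises to dampen insulin signalling, ranked at 28.3% in shARID1A rapamycin, 45.9% in shARID1A DMSO, 44.8% in shControl rapamycin and 33.7% in shControl DMSO.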

How the data were processed

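Peaks were listed separately for 1 library per group. The submitters' processing notes name BWA, MACS2 2.0 and the build GRCh38 (hg38). No source used here gives their settings, the transposase offset, the treatment of duplicate reads or the depth. The deposited score of each peak, whose scale is not given, was used only to rank peaks within a list; its minimum is 1.30 or 1.31 in each list. The other deposited columns are coordinates, an annotation, a distance to the TSS and a nearest gene, per the file headers. Peak numbers skip 6666 places (12.7%) in shARID1A DMSO and 1093 (2.15%) in shControl rapamycin.

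The 38 genes and the other gene lists were chosen with earlier results of these data known. Peaks were assigned by the nearest-gene column and, by position, as the merged region within 1 kb of a RefSeq start with the strongest mean rank (32 genes from the promoter table, 6 from the gene end nearer their listed promoter peaks). Differences are first-named minus second-named rank, in points of list length. The rule for genes named with values took promoters listed in some or no lists, the 3 largest rank differences each way per comparison, the most distal regions, distal regions following genotype or treatment, and the 5 strongest and weakest promoters; promoter values are given for all 38 genes, and other regions and further genes were picked after their values were seen. The overlap and ranking steps were checked on the shControl DMSO list after known peaks were removed or known scores changed. Python 3.11.15, pandas 2.3.3 and NumPy 2.4.6 were used. No test was run, since each group has 1 library.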

Additional observations from a re-analysis of the deposited data

Results flagged for a closer look

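At 4 distal regions open in all 4 libraries the rapamycin difference had opposite signs in the 2 genotypes, with at least 10 points of list length in one and at least 5 in the other. They are 23.5% of the 17 such regions, against 16.5% (3074) of the 18580 distal regions open in every library. Each rests on 1 library per group, and the difference between genotypes was not tested. Chance was not assessed, since no replicate exists.

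The intergenic region -5.3 kb from MTOR ranked at 52.5% in shARID1A rapamycin, 58.4% in shARID1A DMSO, 59.1% in shControl rapamycin and 31.8% in shControl DMSO. Rapamycin thus went with -5.91 points in shARID1A and 27.3 points in shControl, a gap of -33.21 points. The shControl DMSO library alone held the strong value, while the promoter of MTOR stayed within the top 2% of every list.

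Inside PRKAG2, the region -112.1 kb from RHEB had a rapamycin difference of 19.7 points in shARID1A and -5.93 in shControl, a gap of 25.6 points. In intron 1 of FNIP2, 8.8 kb into the gene, the ranks were 44.1% in shARID1A rapamycin, 33.9% in shARID1A DMSO, 26.9% in shControl rapamycin and 38.6% in shControl DMSO, a gap of 21.98 points. In intron 1 of MAPKAP1, 25.6 kb into the gene, rapamycin went with -10.2 points in shARID1A and 11.8 in shControl, a gap of -21.91 points.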

How the results depend on the processing

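No paired analysis was possible because each group has 1 library, so groups share fewer than 2 replicate numbers. Read depth is unknown. Values here follow the literal nearest-gene rule, except those set by position, those of distal regions and those with 1 merged region per promoter. The number of genes with a promoter peak moved by less than 1.5 times under every alternative tried, all set by position included. Counting by place from the top was chosen after seeing the data and gave 12, 11, 7 and 8 weaker distal regions of 17 for knockdown in DMSO, knockdown in rapamycin, rapamycin in shARID1A and rapamycin in shControl.

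In the stronger 50% of each list there were 8 distal peaks in shARID1A rapamycin, 6 in shARID1A DMSO, 11 in shControl rapamycin and 15 in shControl DMSO, and the peaks lost and gained were 0 and 0 for knockdown in DMSO, 1 and 0 for knockdown in rapamycin, 1 and 0 for rapamycin in shARID1A, and 0 and 0 for rapamycin in shControl. With equal numbers of top peaks per list, 4 were lost with knockdown in rapamycin and 2 gained with rapamycin in shControl. Leaving out peaks beside skipped numbers gave 2 lost with knockdown in DMSO and 1 gained with rapamycin in shARID1A, and an overlap of 50% gave 2 gained with knockdown in DMSO.

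The median promoter difference reversed for rapamycin in shARID1A, at -0.29 points with equal numbers of peaks and -0.075 with 1 merged region per promoter, and for rapamycin in shControl, at -0.032 with 1 merged region. Otherwise it moved, for knockdown in DMSO, to -0.24 (500 bp promoters), -2.22 (equal numbers), -1.81 (rank among promoter peaks) and -0.22 (1 merged region). For knockdown in rapamycin it was -2.49, -1.97 and -3.86 under the first 3 of these, for rapamycin in shARID1A 0.021 with 500 bp promoters and 0.084 among promoter peaks, and for rapamycin in shControl 2.93 among promoter peaks. Ranked among promoter peaks, the promoters at least 10 points weaker and stronger were 1 and 2 of 26 for knockdown in DMSO (11.7% and 12.01% of all genes), 3 and 7 of 29 for knockdown in rapamycin (13.6% and 13.5%), 3 and 3 of 28 for rapamycin in shARID1A (11.3% and 9.08%), and 6 and 3 of 29 for rapamycin in shControl (14.2% and 12.2%). The 7 stronger are 24.1% and the 6 weaker 20.7%, over the share of all genes, and 3 stronger for rapamycin in shARID1A are 10.7%. With 1 merged region they were 1 weaker for knockdown in DMSO, and 2 weaker and 2 stronger for knockdown in rapamycin, where 0 were weaker with 500 bp promoters or equal numbers; equal numbers gave 1 stronger for rapamycin in shARID1A. The cause of these shifts was not tested.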

Other observations

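Many open regions inside the 38 genes never appear under their names, since the nearest-gene column gives another gene, often a small RNA gene or pseudogene. Of 79 regions inside the genes and away from their starts, 65 in 19 genes were not listed for any of the 38 in any library. Of these 65, 18 were open in all 4 libraries, against 34.5% of all distal regions. The 65 were kept clear of the starts of the 38 genes alone, and include peaks at other starts, such as RNU6-537P inside MTOR. All distal regions leave out peaks listed within 1 kb of any start, so these shares and those below are not strictly alike. Open in both shARID1A libraries and neither shControl library was 1 of the 65, in intron 31 of TSC2 (chr16:2081816-2082530), at 97.96% in shARID1A rapamycin and 93.4% in shARID1A DMSO. That pattern held for 2.08% of all distal regions. The reverse held for 1 of the 65, against 6.44% of all distal regions. Of the 65, 2 were open in both rapamycin libraries alone and 6 in both DMSO libraries alone, against 1.86% and 2.35%. No difference from these shares was tested. RPTOR has no listed distal peak, yet an intron region 288.4 kb into it (chr17:80832686-80833725), listed under AC016245.1, ranked at 19.6% in shARID1A rapamycin, 20.3% in shARID1A DMSO, 4.44% in shControl rapamycin and 10.6% in shControl DMSO. MAPKAP1 holds another 169.1 kb into the gene (chr9:125537526-125538655), at 18.8% in shARID1A rapamycin, 16.9% in shARID1A DMSO, 10.3% in shControl rapamycin and 9.54% in shControl DMSO, and one more at 74.2 kb, at 30.1% in shARID1A rapamycin, 45.5% in shARID1A DMSO, 19.9% in shControl rapamycin and 16.1% in shControl DMSO. In each of these regions both shARID1A values were weaker than both shControl values.

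Over the 18 regions the shARID1A rank was weaker at 15 in DMSO and 13 in rapamycin, with medians of 8.91 and 7.09 points, against 68.4% and 65.4% of all distal regions open in every library. Here too the background leaves out peaks listed near any start, while the 18 were not chosen so. NPRL3 went the other way: an intron region 41.5 kb into the gene (chr16:96688-97673) ranked at 30.2% in shARID1A rapamycin, 32.7% in shARID1A DMSO, 44.8% in shControl rapamycin and 49.5% in shControl DMSO. These regions were picked after their values were seen, and nothing ties them to the genes that hold them.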
